A study of Homo sapiens with 91 samples.

Results

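The p53 target genes described here are CDKN1A, MDM2, BTG2, PLK2, GADD45A, ZMAT3, SESN1, PPM1D, RRM2B and TP53INP1. They were taken by name, by a rule that uses no measured value but was set with earlier results of these data known, and are 10 of the 62710 genes in each deposited count table. They were measured by bulk RNA sequencing in 91 libraries of 3 established human cancer cell lines, namely MOLT4 (acute lymphoblastic leukemia), PSN1 (pancreatic adenocarcinoma) and RH4 (rhabdomyosarcoma). Cells received KI-CDK9d-32 (which degrades CDK9), KB-0742 (which inhibits it) or the DMSO vehicle. MOLT4 and PSN1 were sampled at 2, 4 and 8 h and RH4 at 4 and 8 h, with 4 libraries per group and 3 for MOLT4 DMSO at 4 h. The 91 libraries include none for KB-0742 at 2 h in PSN1. The labels give no dose, and each tumor type is represented by 1 line. The design text of the series names the third line RH1, whereas every sample label says RH4.

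p53 is a transcription factor that MDM2, a ubiquitin ligase, holds low in unstressed cells and that accumulates after DNA damage and other stress. Its target genes halt the cell cycle (CDKN1A, BTG2, PLK2, GADD45A), supply nucleotides for repair (RRM2B), limit growth signaling (SESN1), act on RNA stability (ZMAT3), promote autophagy and cell death (TP53INP1), or feed back on p53 itself (MDM2, PPM1D). CDK9 is the kinase of P-TEFb, which releases paused RNA polymerase II into elongation.

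RefSeq promoter sequences (GRCh38.p14, from 250 bases before to 50 bases after the annotated start) were matched for 7 of the 10 genes. Those of the 5 genes whose levels are described most fully are printed 5′ to 3′ on the strand of the gene. CDKN1A lies on the plus strand (promoter chr6:36678464-36678763, inside the GENCODE gene, which starts farther upstream). MDM2 (chr12:68807922-68808221), BTG2 (chr1:203305269-203305568) and PPM1D (chr17:60599943-60600242) also lie on the plus strand, and PLK2 on the minus strand (chr5:58460037-58460336). Capitals mark GGGCGG, the GC box, on either strand (it reads CCGCCC when on the other strand), and in addition the single match to the p53 half-site in PLK2 and the single TGACGTCA, a cyclic AMP response element, in PPM1D.
CDKN1A: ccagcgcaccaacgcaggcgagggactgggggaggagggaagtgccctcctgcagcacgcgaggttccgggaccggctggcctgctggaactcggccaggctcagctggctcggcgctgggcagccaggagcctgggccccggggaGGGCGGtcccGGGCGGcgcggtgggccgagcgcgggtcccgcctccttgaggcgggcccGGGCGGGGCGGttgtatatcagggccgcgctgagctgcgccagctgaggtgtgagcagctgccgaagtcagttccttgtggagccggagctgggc
MDM2: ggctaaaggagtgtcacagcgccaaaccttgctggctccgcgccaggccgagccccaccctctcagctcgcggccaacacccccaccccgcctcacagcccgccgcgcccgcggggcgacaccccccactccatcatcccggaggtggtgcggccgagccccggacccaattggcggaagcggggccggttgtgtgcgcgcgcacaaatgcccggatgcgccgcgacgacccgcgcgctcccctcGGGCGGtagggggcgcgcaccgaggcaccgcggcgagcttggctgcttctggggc
BTG2: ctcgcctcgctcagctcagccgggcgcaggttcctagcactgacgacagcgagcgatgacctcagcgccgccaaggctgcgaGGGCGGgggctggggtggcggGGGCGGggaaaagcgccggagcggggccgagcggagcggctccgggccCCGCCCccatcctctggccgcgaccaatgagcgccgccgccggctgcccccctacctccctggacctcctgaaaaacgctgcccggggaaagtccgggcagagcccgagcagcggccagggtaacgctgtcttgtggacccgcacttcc
PLK2: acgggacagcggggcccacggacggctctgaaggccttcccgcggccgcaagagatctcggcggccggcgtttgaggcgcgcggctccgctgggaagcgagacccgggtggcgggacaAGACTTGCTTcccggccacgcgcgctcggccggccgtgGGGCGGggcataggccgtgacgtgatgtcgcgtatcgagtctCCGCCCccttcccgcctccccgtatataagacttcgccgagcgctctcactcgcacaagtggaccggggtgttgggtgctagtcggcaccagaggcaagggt
PPM1D: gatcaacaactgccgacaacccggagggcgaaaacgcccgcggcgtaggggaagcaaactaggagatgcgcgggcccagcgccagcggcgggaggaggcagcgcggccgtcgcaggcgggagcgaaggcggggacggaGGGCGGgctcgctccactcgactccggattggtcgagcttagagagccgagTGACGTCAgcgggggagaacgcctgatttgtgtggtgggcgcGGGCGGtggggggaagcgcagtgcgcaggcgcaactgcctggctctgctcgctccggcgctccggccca

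Both strands were searched in all 7 windows. GGGCGG was present in 7 of 7, against 44.6% of the 27305 promoters in the same RefSeq table, with overlapping copies in CDKN1A. A p53 half-site was present in 1 of 7 (PLK2), against 6.54% of promoters, and it matches on both strands at the same bases. A full p53 site, a pair of half-sites at most 13 bases apart, was present in 0 of 7, against 0.0293% of promoters. TGACGTCA was present in 1 of 7 (PPM1D), against 1.98%. TATAAA (a form of the TATA box, and the only form searched), the E box CACGTG and the serum response element core (CArG) were each present in 0 of 7, against 12%, 7.43% and 1.29%. These are matches of letters in this window only.

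Gene counts per library ran from 1598283 to 3240753 in MOLT4, from 1998712 to 3227113 in PSN1 and from 1670111 to 3136769 in RH4. Among T-lineage, epithelial and myogenic marker lists, the one that fits the labelled line ranked first in all 91 libraries, although the epithelial marker CDH1 was at 0 in the median PSN1 library. Levels within a line are given as CPM, counts scaled to a common library size, after TMM normalization, which sets each gene against the other genes of its library. A change is called where edgeR's quasi-likelihood test gives a Benjamini-Hochberg adjusted p under 0.05 over all genes tested in the line. Equal amounts of spike-in RNA were added to every lysate, and at 8 h in MOLT4 the spike-ins took 39.9% ± 14.8 of all counts with KI-CDK9d-32, 21.5% ± 2.59 with KB-0742 and 14.5% ± 1.91 with DMSO (mean ± SD, n = 4 each). Spike-in scaling moved the median gene against vehicle at 8 h by -2.81 on the log2 scale with KI-CDK9d-32 and by -1.31 with KB-0742 in MOLT4. For PSN1 the 8 h shifts were -0.96 (KI-CDK9d-32) and -0.89 (KB-0742), and for RH4 -0.88 (KI-CDK9d-32) and -1.57 (KB-0742). Fewer cells and less RNA per cell cannot be told apart in these bulk lysates. A higher CPM therefore means a rise relative to most other genes, which need not be a larger share of the counts. At 8 h in MOLT4, PPM1D had 151 of 9110522 gene counts with KI-CDK9d-32 and 255 of 9687518 with DMSO. Its TMM-scaled difference was nevertheless log2 0.34.

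The vehicle libraries differed between lines in which of these genes led. TPM, which corrects for transcript length, allows genes to be ranked within a line, and medians over all DMSO libraries are given with the lowest and highest library. The deposited TPM were not rescaled here to genes alone, so spike-ins may be part of their total, which was not tested. A larger spike-in share would then lower the TPM of every gene in a library. In MOLT4, MDM2 (4.93 TPM, 2.79 to 8.35) and PPM1D (4.15, 2.85 to 5.12) were the highest, with overlapping ranges, followed by BTG2 at 1.42 TPM, and the other 7 genes had medians from 0.161 (PLK2) to 1.06 TPM (SESN1). In PSN1, PLK2 was the highest (6.61 TPM, 2.87 to 10.7), followed by GADD45A (3.53), CDKN1A (2.62) and MDM2 (2.47), whose ranges overlapped. In RH4, CDKN1A stood above the other 9 genes (21.4 TPM, 15.3 to 30.4), and GADD45A (8.76), BTG2 (5.5), PLK2 (5.13) and MDM2 (3.84) followed with overlapping ranges. ZMAT3, SESN1, RRM2B and TP53INP1 had medians of 1.06 TPM or less in each line.

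**Figure D1:**
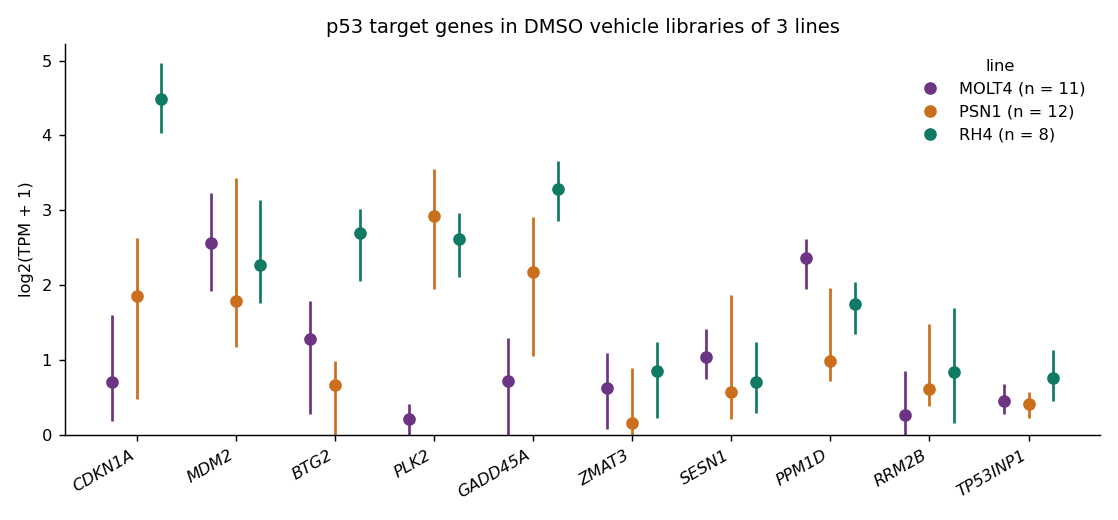
Levels of the 10 p53 target genes as log2(TPM + 1) in the DMSO libraries of MOLT4 (n = 11), PSN1 (n = 12) and RH4 (n = 8). Points are medians and lines run from the lowest to the highest library, and CDKN1A in RH4 lies above every other gene and line.

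Vehicle levels at 8 h were tested between lines in 1 fit of the 36 libraries of that time, in which 9 of the 10 genes were tested (not RRM2B). In MOLT4 against PSN1, 5 of the 9 were called, where 50.7% of all 13843 genes tested were. CDKN1A, the cyclin-dependent kinase inhibitor p21, averaged 0.793 ± 0.436 CPM in MOLT4, 4.19 ± 2.23 in PSN1 and 42.5 ± 11.6 in RH4 (SD, n = 4 each). Its log2 difference was -2.36 ± 0.52 (SE) in MOLT4 against PSN1, -5.65 ± 0.44 in MOLT4 against RH4 and -3.29 ± 0.36 in PSN1 against RH4. The adjusted p were 1.39e-04, 1.45e-15 and 5e-11, and the 4 RH4 libraries (29.7 to 54 CPM) lay above every library of the other lines. PLK2, a polo-like kinase, averaged 0.44 CPM in MOLT4, 25.5 in PSN1 and 12.9 in RH4, with log2 differences of -5.71 in MOLT4 against PSN1 and -4.74 in MOLT4 against RH4. GADD45A, a DNA damage response protein, was also lower in MOLT4, by log2 -3.93 against PSN1 and -4.74 against RH4.

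MDM2 averaged 26.5 CPM in MOLT4, 13.4 in PSN1 and 24 in RH4 at 8 h in DMSO, with a log2 difference of 0.98 ± 0.22 in MOLT4 against PSN1 and -0.84 ± 0.22 in PSN1 against RH4. PPM1D, the phosphatase Wip1, was higher in MOLT4 (18.7 CPM) than in PSN1 (6.74) by log2 1.45 and than in RH4 (10) by log2 0.89, and the RH4 call was lost without RH4 DMSO replicate 3 (adjusted p 0.0538) and with spike-in scaling (log2 0.24, adjusted p 0.676). BTG2, an antiproliferative protein, averaged 3.87 CPM in MOLT4, 1.45 in PSN1 and 14.5 in RH4. It was lower by log2 -1.87 in MOLT4 against RH4 and -3.20 in PSN1 against RH4. In MOLT4 against RH4, 5 of the 9 genes were called (background 48.6%), and in PSN1 against RH4 4 of the 9 (background 46.9%), shares near those of all genes. The fourth call in PSN1 against RH4, PLK2 at log2 0.97, was lost without PSN1 DMSO replicate 1 or 2 or RH4 DMSO replicate 1, 3 or 4 (adjusted p up to 0.185), with spike-in scaling (log2 0.28, adjusted p 0.649) and with DESeq2 (adjusted p 0.0513). From the earliest to the latest vehicle time of a line, edgeR called 0 of the members tested (0 at an unadjusted p under 0.05). Of all genes, 0.0171%, 0.0241% and 0% were called in MOLT4, PSN1 and RH4. DESeq2 also called 0 members in PSN1 and RH4, but gave no member an adjusted p in MOLT4.

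The low-count filter kept 7 members in MOLT4 (not PLK2, GADD45A or RRM2B), 7 in PSN1 (not BTG2, ZMAT3 or SESN1) and 8 in RH4 (not SESN1 or RRM2B). In MOLT4, KI-CDK9d-32 against vehicle called 1 member at 2 h (lower), 3 at 4 h (lower) and 2 at 8 h (higher). Of all genes, 9.98% were called at 2 h (5.41% lower), 32.6% at 4 h (18.9% lower) and 49.6% at 8 h (20.8% higher). KB-0742 against vehicle in MOLT4 called 0 members at 2 h, 2 at 4 h (1 higher, 1 lower) and 2 at 8 h (higher), against 26.1%, 35.8% and 49.2% (23.4% higher) of all genes. At 2 h, 0 of the 7 members had an unadjusted p under 0.05 with KB-0742, and DESeq2 also called 0. In PSN1, KI-CDK9d-32 called 0 members at 2 h (0.481% of all genes), 1 at 4 h (7.36%, 3.74% lower) and 3 at 8 h (20.7%, 9.61% lower), all lower. At 2 h, 1 of the 7 had an unadjusted p under 0.05, and DESeq2 called 0. KB-0742 in PSN1 called 2 members at 4 h (1 higher, 1 lower; 23.9% of all genes) and 1 at 8 h (higher; 30.2%, 15.1% higher). In RH4, KI-CDK9d-32 called 2 members at 4 h (5.36%, 1.89% lower) and 2 at 8 h (15.2%, 6.05% lower), all lower. KB-0742 in RH4 called 2 members at 4 h (1 higher, 1 lower; 31.6%) and 5 at 8 h (3 higher, 2 lower; 45.4%). Each of these counts rests on 5 genes or fewer and is not read against the background. The KI-CDK9d-32 count in MOLT4 at 8 h was 4 of 7 with DESeq2's size factors and with the DESeq2 test, and 2 to 4 without 1 library.

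**Figure D2:**
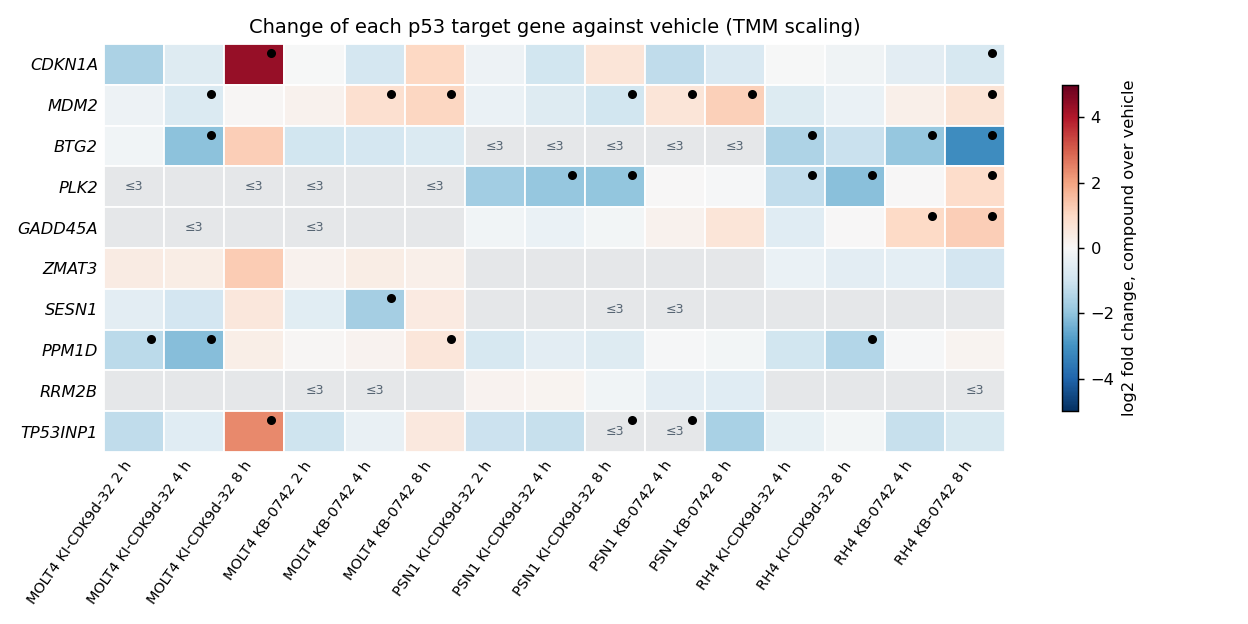
Log2 fold change of each p53 target gene (rows) against DMSO at the same time in each line, compound and time (columns), with TMM scaling. Dots mark called changes, gray squares genes not tested, and "≤3" a group with 3 counts or fewer, for which no fold is drawn. CDKN1A with KI-CDK9d-32 at 8 h in MOLT4 is the highest value (4.36), and under spike-in scaling, not drawn here, 9 of the 11 higher calls have the opposite sign.

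MDM2 (chr12:68808176-68850686, plus strand), which ends p53 signaling by degrading p53, was higher with KB-0742 at 8 h in all 3 lines on the TMM scale (below 0 in MOLT4 and RH4 with spike-in scaling), and lower with KI-CDK9d-32 in MOLT4 at 4 h and PSN1 at 8 h. In MOLT4 at 8 h it had 28.8, 38.4, 29.5 and 22.2 CPM with KI-CDK9d-32, 72.7, 68.1, 51.7 and 48.3 under KB-0742, and 24.5, 32.4, 31.4 and 24.9 with DMSO. All 4 KB-0742 libraries lay above all DMSO libraries, while the KI-CDK9d-32 libraries overlapped them. With KB-0742 MDM2 rose by log2 1.09 ± 0.20 (SE; adjusted p 8.22e-06), a sign that turned under spike-in scaling (-0.25), whereas KI-CDK9d-32 gave 0.07 with a 95% interval of -0.36 to 0.50 (-2.75 with spike-in scaling). At 4 h in MOLT4, MDM2 had 15.9, 20.9, 15 and 27.4 CPM with KI-CDK9d-32, 51.4, 54.3, 64.1 and 56.2 under KB-0742, and 29.3, 32.4 and 35.6 with DMSO. The 3 groups did not overlap. MDM2 fell by log2 0.73 ± 0.22 with KI-CDK9d-32 (adjusted p 0.00966) and rose by log2 0.80 ± 0.21 with KB-0742 (adjusted p 0.00241; -0.57 with spike-in scaling).

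In PSN1 at 8 h, MDM2 had 9.15, 6.69, 6.35 and 6.48 CPM with KI-CDK9d-32, 30.6, 23.8, 40 and 32.4 under KB-0742, and 14.9, 13.1, 12.1 and 15.4 with DMSO. The KI-CDK9d-32 libraries were all below and the KB-0742 libraries all above the DMSO libraries. MDM2 fell by log2 0.95 ± 0.27 with KI-CDK9d-32 (adjusted p 0.0085) and rose by log2 1.19 ± 0.24 with KB-0742 (adjusted p 1.98e-04; 0.27, adjusted p 0.529, with spike-in scaling). At 4 h in PSN1 it averaged 9.46 ± 3.05 CPM with KI-CDK9d-32, 23.1 ± 5.13 under KB-0742 and 14.8 ± 1.59 with DMSO (SD, n = 4 each). KB-0742 gave log2 0.65 ± 0.24 (adjusted p 0.0432; -0.21 with spike-in scaling), and this call was lost without any 1 of the 8 libraries except KB-0742 replicates 1 and 2 (adjusted p up to 0.145).

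In RH4 at 8 h, MDM2 had 25.2, 20.5, 22.6 and 16 CPM with KI-CDK9d-32, 55.4, 43.3, 35.9 and 32.3 under KB-0742, and 32.7, 24, 20.9 and 27.8 with DMSO. One KB-0742 library lay just below the highest DMSO library, and the KI-CDK9d-32 libraries overlapped the DMSO range. KB-0742 gave log2 0.67 ± 0.21 (adjusted p 0.00761), which was lost without KB-0742 replicate 1 (adjusted p 0.0653) and was called in the opposite direction with spike-in scaling (-0.90, adjusted p 0.00621). In the deposited TPM the MDM2 medians were 4.17 with KB-0742 and 4.59 with DMSO at 8 h. KI-CDK9d-32 gave a TMM-scaled log2 of -0.33 with a 95% interval of -0.76 to 0.09 at 8 h. At 4 h the KI-CDK9d-32 libraries (19.1, 21.5, 19.9 and 16.2 CPM) lay below all DMSO libraries (32.3, 30.3, 27.7 and 31.4), with log2 -0.66 ± 0.21 and an adjusted p of 0.0516. Counting used no strand, and the span of MDM2, introns included, shares 8490 bases with that of the carboxypeptidase M gene on the opposite strand.

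PPM1D (chr17:60600183-60666280, plus strand) encodes a phosphatase that removes activating phosphates from p53 and its upstream kinases. It was the only member called at 2 h in MOLT4. At that time it had 5.57, 5.68, 7.86 and 9.77 CPM with KI-CDK9d-32, 27.1, 20.4, 14.3 and 16.1 under KB-0742, and 17.1, 19.7, 21.6 and 15.2 with DMSO. At 4 h it had 3.7, 6.47, 2.5 and 6.09 CPM with KI-CDK9d-32, 19.5, 21.6, 28.6 and 24.8 under KB-0742, and 19.5, 23.5 and 19 with DMSO. At both times every KI-CDK9d-32 library lay below every other library. PPM1D fell with KI-CDK9d-32 by log2 1.35 ± 0.28 at 2 h (adjusted p 6.39e-04; adjusted p 0.0642 with spike-in scaling, at log2 -1.66) and by log2 2.13 ± 0.33 at 4 h (adjusted p 7.21e-07). At 8 h it had 39.3, 29.9, 17.5 and 13.5 CPM with KI-CDK9d-32, 33, 40.3, 18 and 30 under KB-0742, and 19.1, 21.5, 19.4 and 19.7 with DMSO. The KI-CDK9d-32 libraries now spread on both sides of the DMSO libraries, at log2 0.34 with a 95% interval of -0.20 to 0.87 (-2.48 with spike-in scaling). KB-0742 gave log2 0.60 ± 0.25 at 8 h (adjusted p 0.0455, and -0.73 with spike-in scaling). This call ended without any 1 of the 8 libraries except KB-0742 replicate 3 (adjusted p up to 0.188). The medians of the deposited TPM at 8 h were 1.67 with KI-CDK9d-32, 3.65 with KB-0742 and 4.38 with DMSO.

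In RH4, PPM1D was also lower with KI-CDK9d-32. It had 1.8, 5.71, 3.69 and 4.27 CPM with KI-CDK9d-32 at 8 h, 9.41, 15.3, 8.84 and 14.9 with KB-0742, and 10.9, 11.2, 8.89 and 13.2 with DMSO. The KI-CDK9d-32 libraries lay below all others, and PPM1D fell by log2 1.47 ± 0.35 (adjusted p 0.00211), while the KB-0742 and DMSO libraries overlapped. At 4 h the 4 KI-CDK9d-32 libraries (4.76, 4.63, 7.43 and 6.74 CPM) were below the DMSO libraries (11.4, 14.6, 8.57 and 11.5), at log2 -0.96 ± 0.33 and an adjusted p of 0.0748. In PSN1, PPM1D ranged between 1.08 and 14 CPM over all libraries and was called with neither compound at any time.

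**Figure D3:**
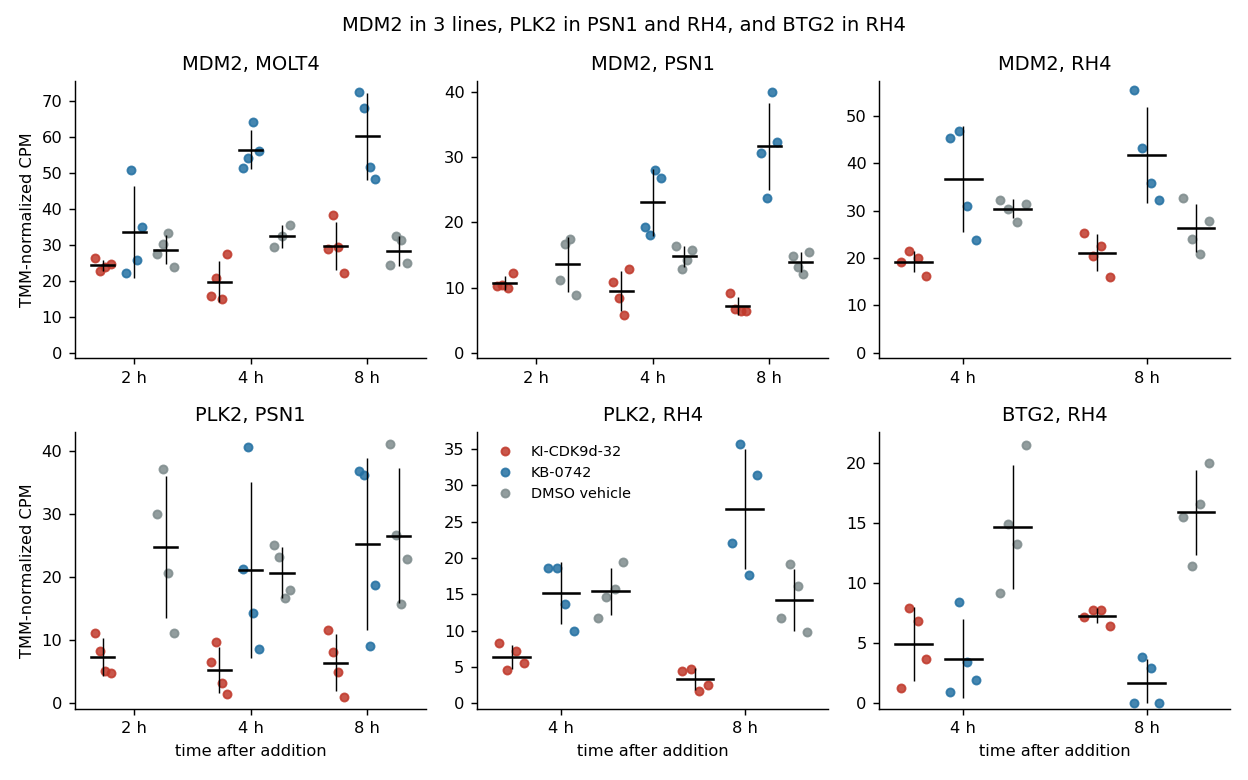
TMM-normalized CPM of MDM2 in the 3 lines, PLK2 in PSN1 and RH4, and BTG2 in RH4 at each time with KI-CDK9d-32, KB-0742 and DMSO. Points are libraries, bars group means and thin lines 1 SD either way, stopping at 0. MDM2 with KB-0742 at 8 h averages 60.2 CPM in MOLT4, 31.7 in PSN1 and 41.7 in RH4, against 28.3, 13.9 and 26.3 with DMSO, and these differences are -0.25, 0.27 and -0.90 on the log2 scale with spike-in scaling.

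CDKN1A (chr6:36676460-36687339, plus strand) binds and inhibits cyclin-dependent kinases and is the best known p53 target in cell cycle arrest. In MOLT4 at 8 h it had 11.8, 21.4, 15.7 and 24.6 CPM with KI-CDK9d-32, 0, 3.67, 1.8 and 1.9 under KB-0742, and 1.36, 0.312, 1.06 and 0.647 with DMSO. Every KI-CDK9d-32 library lay above every other library, and the KB-0742 and DMSO libraries overlapped. CDKN1A rose by log2 4.36 ± 0.76 with KI-CDK9d-32 (95% interval 2.84 to 5.88, adjusted p 3.34e-06), the largest TMM-scaled change of a member against vehicle among those without a group of 3 counts or fewer. The DMSO level rested on 11 counts over 4 libraries, and with spike-in scaling the difference was log2 1.70 at an adjusted p of 0.0591. At 2 and 4 h the CDKN1A groups overlapped in MOLT4, with 0.712 ± 0.534 and 1.59 ± 0.633 CPM with KI-CDK9d-32 and 2.19 ± 1.98 and 2.47 ± 1.43 CPM with DMSO. The DMSO mean at 8 h was lower, at 0.845 CPM. In DMSO, 8 h against 2 h gave log2 -1.32 with a 95% interval of -2.88 to 0.24, which was not called. DINOL, a noncoding gene on the opposite strand, shares 951 bases with CDKN1A by gene span, introns included.

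CDKN1A did not follow this course in the other lines. In PSN1 at 8 h it had 9.15, 5.2, 4.53 and 8.97 CPM with KI-CDK9d-32, 1.73, 1.23, 3.87 and 3.66 under KB-0742, and 1.15, 4.24, 6.21 and 5.78 with DMSO. Both compound groups overlapped the DMSO group, and KI-CDK9d-32 gave log2 0.65 with a 95% interval of -0.36 to 1.65 (-0.37 with spike-in scaling). In RH4 at 8 h it had 31.5, 43, 46.3 and 40.2 CPM with KI-CDK9d-32, 23.8, 22.9, 29.5 and 29.8 under KB-0742, and 39.6, 32.6, 55.3 and 59.3 with DMSO. The KB-0742 libraries lay below all DMSO libraries. CDKN1A fell by log2 0.82 ± 0.28 with KB-0742 in RH4 (adjusted p 0.0184), a call that was lost without DMSO replicate 3 or 4 or KB-0742 replicate 1 or 2 (adjusted p up to 0.0601). KI-CDK9d-32 in RH4 gave log2 -0.21 with a 95% interval of -0.74 to 0.32.

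**Figure D4:**
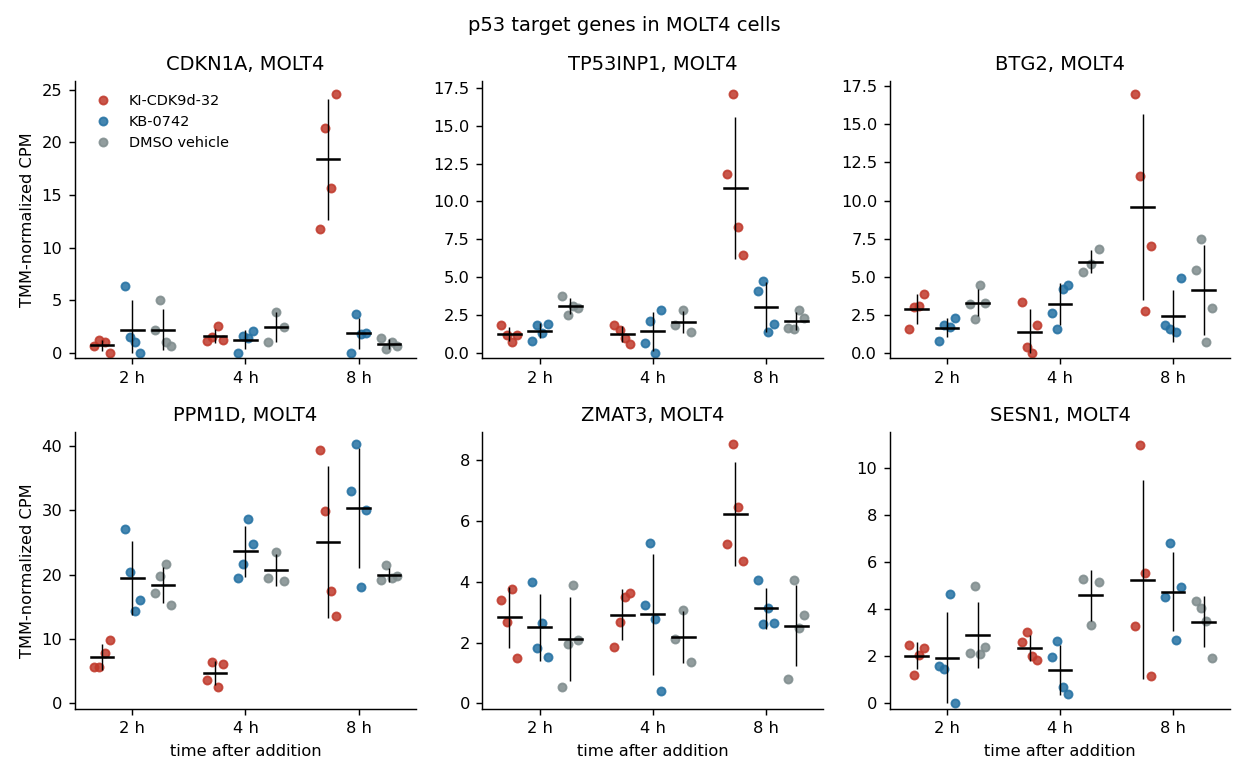
TMM-normalized CPM of CDKN1A, TP53INP1, BTG2, PPM1D, ZMAT3 and SESN1 in MOLT4 at 2, 4 and 8 h with KI-CDK9d-32, KB-0742 and DMSO. Points are libraries, bars group means and thin lines 1 SD either way, stopping at 0. At 8 h CDKN1A averages 18.4 CPM with KI-CDK9d-32, 1.84 under KB-0742 and 0.845 with DMSO, and TP53INP1, at 10.9 CPM with KI-CDK9d-32 against 2.07 with DMSO, has the opposite sign with spike-in scaling (log2 -0.39).

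BTG2 (chr1:203305491-203309602, plus strand) is an antiproliferative protein that recruits mRNA deadenylases. In RH4 it fell with KB-0742 at both times and with KI-CDK9d-32 at 4 h. At 8 h it had 7.2, 7.72, 7.79 and 6.41 CPM with KI-CDK9d-32, 0, 3.82, 2.95 and 0 under KB-0742, and 15.5, 11.4, 16.6 and 20 with DMSO. The 3 groups did not overlap. With KB-0742 it fell by log2 3.15 ± 0.60 at 8 h (adjusted p 6.07e-05) and by log2 1.93 ± 0.51 at 4 h (adjusted p 0.00381), where it averaged 3.71 ± 3.3 CPM with KB-0742 and 14.7 ± 5.15 with DMSO (SD, n = 4 each). With KI-CDK9d-32 the 4 h difference of log2 -1.55 ± 0.47 was called (adjusted p 0.047), but was lost without any 1 of the 8 libraries except DMSO replicate 1 and KI-CDK9d-32 replicate 2 (adjusted p up to 0.149), and with spike-in scaling (log2 -1.85, adjusted p 0.142). At 8 h the KI-CDK9d-32 difference was log2 -1.12 ± 0.45 with an adjusted p of 0.094, although the groups did not overlap.

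In MOLT4 at 4 h, BTG2 had 3.33, 0.381, 0 and 1.83 CPM with KI-CDK9d-32, 2.6, 1.58, 4.18 and 4.48 under KB-0742, and 5.28, 5.86 and 6.8 with DMSO. All compound libraries lay below the DMSO libraries, and KI-CDK9d-32 gave log2 -2.04 ± 0.65 (adjusted p 0.0128), lost without KI-CDK9d-32 replicate 2 or 3 (adjusted p up to 0.0582). At 8 h the KI-CDK9d-32 libraries reached 17, 11.6, 2.77 and 7.02 CPM, against 5.45, 7.48, 0.705 and 2.91 with DMSO, and the groups overlapped (log2 1.21 ± 0.54, adjusted p 0.0595; -1.47 with spike-in scaling). In the deposited TPM the BTG2 medians in MOLT4 at 8 h were 1.12 with KI-CDK9d-32 and 1.46 with DMSO. Its share of gene counts was not lower, at 60 of 9110522 with KI-CDK9d-32 and 55 of 9687518 with DMSO. In PSN1, BTG2 was below the filter. Summed over the 4 libraries of a group it had 1 count with KI-CDK9d-32 and 20 with DMSO at 2 h, a ratio of normalized levels of 0.0495 (95% counting interval 0.0012 to 0.31). At 4 h it had 2 counts with KI-CDK9d-32 and 1 under KB-0742, against 28 with DMSO, and the ratios were 0.0831 (0.00959 to 0.329) and 0.0545 (0.00133 to 0.33). At 8 h both compounds had 2 counts, against 20 with DMSO, with ratios of 0.129 (0.0146 to 0.53) for KI-CDK9d-32 and 0.133 (0.0151 to 0.549) for KB-0742. These intervals cover counting error only.

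PLK2 (chr5:58453982-58460260, minus strand), a polo-like kinase of the early cell cycle, was lower with KI-CDK9d-32 in both lines in which it was tested. In PSN1 it had 11.2, 8.25, 5.09 and 4.74 CPM with KI-CDK9d-32 at 2 h, against 29.9, 37.1, 20.7 and 11.2 with DMSO, where the groups met at 11.2 and the difference of log2 -1.74 ± 0.53 was not called (adjusted p 0.216). At 4 h it had 6.51, 9.68, 3.25 and 1.5 CPM with KI-CDK9d-32, 21.3, 40.5, 14.3 and 8.55 under KB-0742, and 25, 23.2, 16.7 and 17.9 with DMSO. At 8 h it had 11.6, 8.18, 4.99 and 0.997 CPM with KI-CDK9d-32, 36.7, 36.2, 9.03 and 18.8 under KB-0742, and 41, 26.7, 15.7 and 22.8 with DMSO. The KI-CDK9d-32 libraries lay below all DMSO libraries at 4 and 8 h, and the KB-0742 libraries spread across them. With KI-CDK9d-32 PLK2 fell by log2 1.95 ± 0.56 at 4 h (adjusted p 0.0311) and by log2 1.99 ± 0.56 at 8 h (adjusted p 0.0112). The 4 h call was lost without DMSO replicate 1 or 2 or KI-CDK9d-32 replicate 3 or 4 (adjusted p up to 0.106), and the 8 h call was kept without each library.

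In RH4, PLK2 moved in opposite directions with the compounds at 8 h on the TMM scale (both below 0 with spike-in scaling). It had 4.5, 4.7, 1.64 and 2.49 CPM with KI-CDK9d-32, 22.1, 35.7, 17.7 and 31.5 under KB-0742, and 11.8, 19.2, 16.1 and 9.83 with DMSO. The KI-CDK9d-32 libraries lay below all others, and 1 KB-0742 library fell within the DMSO range. PLK2 fell by log2 2.07 ± 0.34 with KI-CDK9d-32 (adjusted p 2.06e-05) and rose by log2 0.90 ± 0.29 with KB-0742 (adjusted p 0.00914). The KB-0742 call was lost without KB-0742 replicate 2 (adjusted p 0.0561), and its sign turned with spike-in scaling (-0.69, adjusted p 0.0768). In the deposited TPM the PLK2 medians at 8 h were 4.42 with KB-0742 and 4.68 with DMSO. At 4 h PLK2 averaged 6.38 ± 1.63 CPM with KI-CDK9d-32, 15.2 ± 4.24 under KB-0742 and 15.4 ± 3.23 with DMSO, and fell by log2 1.25 ± 0.30 with KI-CDK9d-32 (adjusted p 0.0109). In MOLT4 it was near absent, with 6 counts over the 4 DMSO libraries at 8 h. At 2 h in MOLT4 it had 0 counts with each compound, against 9 with DMSO. It was then at least 2.66-fold lower with KI-CDK9d-32 and at least 2.24-fold lower with KB-0742. These bounds take 3 counts over a group as the floor and allow no error in the 9 DMSO counts.

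GADD45A (chr1:67685061-67688338, plus strand), which acts in growth arrest and DNA repair, was tested in PSN1 and RH4, and against vehicle it was called only in RH4 with KB-0742. At 8 h in RH4 it had 8.1, 11.1, 11.9 and 9.26 CPM with KI-CDK9d-32, 32.1, 12.1, 25.9 and 22.4 under KB-0742, and 10.3, 10.9, 8.6 and 9.55 with DMSO. All KB-0742 libraries lay above all DMSO libraries, which the KI-CDK9d-32 libraries overlapped. With KB-0742 GADD45A rose by log2 1.24 ± 0.31 at 8 h (adjusted p 9.91e-04; -0.34 with spike-in scaling). At 4 h the difference was log2 1.00 ± 0.31 (adjusted p 0.0113; -0.19 with spike-in scaling), from 18.6 ± 9.06 CPM with KB-0742 and 9.4 ± 3.29 with DMSO, and this call was lost without KB-0742 replicate 1 or DMSO replicate 2 (adjusted p up to 0.143). In the deposited TPM the RH4 groups overlapped. The GADD45A medians were 8.39 with KB-0742 and 9.09 with DMSO at 8 h, and 7.69 and 8.42 at 4 h. In PSN1 at 8 h GADD45A averaged 4.67 ± 4.13 CPM with KI-CDK9d-32, 8.27 ± 2.22 under KB-0742 and 5.29 ± 2.78 with DMSO, with no call. In MOLT4 GADD45A was below the filter, with totals per group at 2, 4 and 8 h of 4, 2 and 4 counts with KI-CDK9d-32, 3, 8 and 12 under KB-0742, and 13, 4 and 4 with DMSO.

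TP53INP1 (chr8:94925972-94949411, minus strand), a stress-induced protein that promotes autophagy and cell death, was higher with KI-CDK9d-32 in MOLT4 on the TMM scale (below 0 with spike-in scaling) and lower in PSN1. In MOLT4 at 8 h it had 11.8, 17.1, 8.3 and 6.43 CPM with KI-CDK9d-32, 4.07, 4.71, 1.35 and 1.9 under KB-0742, and 1.63, 1.56, 2.82 and 2.27 with DMSO. The KI-CDK9d-32 libraries lay above all others, and the gene rose by log2 2.39 ± 0.55 (adjusted p 2.86e-04), while with spike-in scaling the value was -0.39. In PSN1 it had 2 counts with KI-CDK9d-32, all in replicate 1, against 30 with DMSO at 8 h, a ratio of 0.0858 (95% counting interval 0.00994 to 0.338; edgeR adjusted p 0.0124). At 4 h in PSN1 it had 0 counts with KB-0742 and 32 with DMSO, so it was at least 6.99-fold lower (edgeR adjusted p 0.0012). This bound takes 3 counts over the group as the floor and allows no error in the 32 DMSO counts. At the same time KI-CDK9d-32 left 12 counts, at 2.53, 0.323, 0.721 and 0.751 CPM against 2.67, 1.83, 2.73 and 2.52 with DMSO, and was not called. In RH4 TP53INP1 averaged 4.54 ± 1.68 CPM with KI-CDK9d-32, 2.72 ± 1.89 under KB-0742 and 4.92 ± 1.51 with DMSO at 8 h, and was not called. TP53INP1 lies wholly within the span, introns included, of NDUFAF6, a gene on the opposite strand. Only reads from sequence shared by exons of both could not be told apart without strand, and exon overlap was not tested.

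The other 3 members were low in every line. SESN1 (chr6:108986437-109094819, minus strand), a sestrin that restrains mTORC1, was tested in MOLT4 alone. At 4 h it had 2.59, 3.05, 2 and 1.83 CPM with KI-CDK9d-32, 1.95, 2.64, 0.696 and 0.407 under KB-0742, and 5.28, 3.35 and 5.17 with DMSO. The compound libraries lay below the DMSO libraries, and KB-0742 gave log2 -1.69 ± 0.69 (adjusted p 0.0491), a call that was lost without any 1 of the 7 libraries except KB-0742 replicate 2 (adjusted p up to 0.163). In PSN1 at 8 h SESN1 had 2 counts with KI-CDK9d-32 and 37 with DMSO, 26 of them in 1 library (ratio 0.0696, counting interval 0.00813 to 0.27). In RH4, where it was below the filter, SESN1 averaged 1.36 ± 1.36 CPM with KI-CDK9d-32, 1.45 ± 1.95 under KB-0742 and 2.21 ± 1.17 with DMSO at 8 h. ZMAT3 (chr3:179017223-179072279, minus strand), a zinc finger RNA-binding protein, had 5.24, 8.54, 6.46 and 4.68 CPM with KI-CDK9d-32 in MOLT4 at 8 h, 4.07, 2.62, 3.15 and 2.66 with KB-0742, and 0.817, 4.05, 2.47 and 2.91 with DMSO. The KI-CDK9d-32 libraries lay above all others in CPM. The difference from DMSO, log2 1.28 ± 0.56, was not called (adjusted p 0.0557, and -1.54 with spike-in scaling). In the deposited TPM the KI-CDK9d-32 libraries (median 0.408, 0.292 to 0.62) overlapped the DMSO libraries (median 0.742, 0.26 to 0.984). In RH4 at 8 h ZMAT3 averaged 2.71 ± 1.31 CPM with KI-CDK9d-32, 2.02 ± 1.49 under KB-0742 and 3.92 ± 2.29 with DMSO, in overlapping groups, and neither log2 -0.53 (KI-CDK9d-32, adjusted p 0.611) nor -0.92 (KB-0742, adjusted p 0.251) was called. In PSN1 it was below the filter, with 21 counts over the KI-CDK9d-32 group, 14 over the KB-0742 group and 20 over the DMSO group at 8 h. RRM2B (chr8:102204502-102239118, minus strand), the p53-induced subunit of ribonucleotide reductase, was tested in PSN1 alone, where group means ran from 2.02 to 3.89 CPM with no call. In RH4 at 8 h RRM2B had 1 count with KB-0742 and 32 with DMSO (ratio 0.0698, counting interval 0.00171 to 0.418), and 7 with KI-CDK9d-32 against that 1 with KB-0742 (ratio 4.21, counting interval 0.54 to 190). In MOLT4 the RRM2B totals at 2, 4 and 8 h were 12, 14 and 4 counts (KI-CDK9d-32), 2, 2 and 4 counts (KB-0742), and 10, 9 and 16 counts (DMSO). The ratio of KI-CDK9d-32 to KB-0742 was 5.06 at 2 h (counting interval 1.13 to 46.6) and 5.72 at 4 h (1.31 to 51.8).

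The compounds were compared directly at 7 matched line and time points, with p-values adjusted over all genes of each. MDM2 was lower with KI-CDK9d-32 than with KB-0742 in 6 of these 7, at log2 -1.53 ± 0.21 in MOLT4, -1.30 ± 0.25 in PSN1 and -0.94 ± 0.21 in RH4 at 4 h, and at -1.01 ± 0.21 in MOLT4, -2.13 ± 0.26 in PSN1 and -1.003 ± 0.22 in RH4 at 8 h. The groups did not overlap in any of the 6, and the adjusted p ran from 4.08e-08 (PSN1 8 h) to 8.47e-04 (RH4 4 h). With spike-in scaling MDM2 stayed lower in all 6 but was no longer called at 4 h in MOLT4 (-1.03) and PSN1 (-1.05) and at both times in RH4 (-0.21 and -0.29). In MOLT4 the members called were 1 at 2 h (lower; 18.3% of all genes, 10.1% lower), 2 at 4 h (both lower; 35.7%, 21.1% lower) and 4 at 8 h (58.5%), in PSN1 3 at 4 h (17.4%) and 2 at 8 h (both lower; 24.8%, 12.8% lower), and in RH4 4 at 4 h (all lower; 25.8%, 12.4% lower) and 5 at 8 h (38.4%).

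PPM1D was lower with KI-CDK9d-32 than with KB-0742 in MOLT4 by log2 -1.42 ± 0.28 at 2 h (adjusted p 2.07e-04) and -2.32 ± 0.32 at 4 h (adjusted p 7.01e-08), but not at 8 h (log2 -0.26, 95% interval -0.79 to 0.27). With spike-in scaling the 2 h call was lost (-0.95, adjusted p 0.344) and the 4 h call kept (-1.86, adjusted p 0.0105). In RH4 it was lower by log2 -1.59 ± 0.36 at 8 h (adjusted p 5.32e-04). The 4 h value in RH4, log2 -0.90 ± 0.33 (adjusted p 0.0414), was lost without any 1 of the 8 libraries except KB-0742 replicates 2 and 3 and KI-CDK9d-32 replicate 3 (adjusted p up to 0.146), and neither RH4 call held with spike-in scaling (-0.11 at 4 h and -0.89 at 8 h, adjusted p 0.846 and 0.101). CDKN1A was higher with KI-CDK9d-32 than with KB-0742 in MOLT4 at 8 h, by log2 3.31 ± 0.72 (adjusted p 1.04e-04; 1.85, adjusted p 0.0527, with spike-in scaling). The same comparison gave log2 1.41 ± 0.54 in PSN1 (adjusted p 0.0524) and 0.61 ± 0.29 in RH4 (adjusted p 0.0948), with no overlap between the compounds in either line. TP53INP1 at log2 1.87 ± 0.55 (adjusted p 0.00315) and BTG2 at log2 1.95 ± 0.59 (adjusted p 0.004), whose groups overlapped, were also higher with KI-CDK9d-32 in MOLT4 at 8 h. Neither kept its call with spike-in scaling, at 0.45 (TP53INP1, adjusted p 0.627) and 0.50 (BTG2, adjusted p 0.567).

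BTG2 was higher with KI-CDK9d-32 than with KB-0742 in RH4 at 8 h as well, by log2 2.03 ± 0.64 (adjusted p 0.0118; 2.68, adjusted p 0.00943, with spike-in scaling). PLK2 was lower with KI-CDK9d-32 in RH4 by log2 -1.25 ± 0.31 at 4 h (adjusted p 0.00242) and -2.97 ± 0.34 at 8 h (adjusted p 4.3e-09), the most significant difference of a member between the compounds. In PSN1 the PLK2 differences were log2 -1.96 ± 0.57 at 4 h (adjusted p 0.0166) and -1.93 ± 0.56 at 8 h (adjusted p 0.0122), with overlapping groups at both times. The 4 h call was lost without KB-0742 replicate 2 or KI-CDK9d-32 replicate 3 or 4 (adjusted p up to 0.095). With spike-in scaling PLK2 kept its call in RH4 at 8 h (-2.31, adjusted p 1.4e-05) but not at 4 h (-0.56, adjusted p 0.243), and in PSN1 at neither time (-1.76 and -2.02, adjusted p 0.158 and 0.0821). GADD45A was lower with KI-CDK9d-32 in RH4, by log2 -1.62 ± 0.32 at 4 h (adjusted p 1.78e-04) and -1.20 ± 0.31 at 8 h (adjusted p 0.00216), calls that were lost with spike-in scaling (-0.88 and -0.47, adjusted p 0.0725 and 0.329). TP53INP1 in PSN1 at 4 h had 12 counts with KI-CDK9d-32 and 0 under KB-0742. It was at least 3.05-fold higher with a floor of 3 counts and no error allowed in the 12. The call rests on KI-CDK9d-32 replicate 1 (adjusted p 0.0182, and 0.0831 without it). The labels give no doses, so these differences hold for the amounts used.

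The KI-CDK9d-32 effect in MOLT4 changed between 4 and 8 h for 4 of the 7 members tested, all upward, where 12.5% of all genes were called and 5.15% were called upward. CDKN1A changed by log2 4.99 ± 1.09 (adjusted p 8.31e-04), BTG2 by 3.25 ± 0.85 (adjusted p 0.00559), PPM1D by 2.47 ± 0.42 (adjusted p 2.17e-05) and TP53INP1 by 2.99 ± 0.85 (adjusted p 0.0123). The TP53INP1 change was lost without DMSO 4 h replicate 3 (adjusted p 0.0532). Each change is that of compound minus vehicle, so it also holds any difference between the vehicle groups. CDKN1A had 27 counts in the 3 DMSO libraries at 4 h and 11 in the 4 at 8 h, so part of its change lies in the vehicle. With spike-in scaling, whose median gene moved by -1.78 between these times, CDKN1A kept its call (3.41, adjusted p 0.027), and BTG2 (1.67), PPM1D (0.54) and TP53INP1 (1.24) did not. For the other 8 changes of a compound effect over time, edgeR called 0 members. At most 1 member had an unadjusted p under 0.05 in any of them. DESeq2 called 0 where it gave an adjusted p. It gave no member an adjusted p for KI-CDK9d-32 (8 h minus 4 h) in PSN1 and RH4, and left members without one in most others. All genes called were 3.46% (KI-CDK9d-32, 4 h minus 2 h), 3.15% (KB-0742, 4 h minus 2 h) and 17.8% (KB-0742, 8 h minus 4 h) in MOLT4. They were 0.016% and 0.016% for KI-CDK9d-32 (4 h minus 2 h, 8 h minus 4 h) and 1.88% for KB-0742 in PSN1, and 0% for KI-CDK9d-32 and 8.52% for KB-0742 in RH4.

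The KI-CDK9d-32 effect at 8 h was also compared between lines. The 36 libraries of 8 h were fitted together, and in MOLT4 minus PSN1, 5 of the 9 members tested differed upward, where 17.2% of all genes differed and 7.65% differed upward. In MOLT4 minus RH4, 4 of 9 differed upward (16.3% of all genes differed, 7.1% upward). CDKN1A differed by log2 3.86 ± 0.64 from PSN1 (adjusted p 1e-05) and by 4.70 ± 0.57 from RH4 (adjusted p 2.54e-08), and kept both calls with spike-in scaling (2.03 and 2.76), which moved the median gene by -1.88 and -1.95. TP53INP1 differed from RH4 by log2 2.63 ± 0.76 (adjusted p 0.0114; 0.62 with spike-in scaling) and from PSN1 at an adjusted p of 1.72e-05, where a PSN1 group holds 2 counts. PPM1D differed from RH4 by log2 1.94 ± 0.50 (adjusted p 0.00447; -0.14 with spike-in scaling). MDM2 differed from PSN1 by log2 1.15 ± 0.34 (adjusted p 0.0134; -0.84 with spike-in scaling).

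BTG2 differed from RH4 by log2 2.47 ± 0.81 (adjusted p 0.0281), a call that was lost without 6 of the 16 libraries, namely MOLT4 DMSO replicate 3 or 4, MOLT4 KI-CDK9d-32 replicate 1 or 2, RH4 DMSO replicate 4 or RH4 KI-CDK9d-32 replicate 4 (adjusted p up to 0.0989), and with spike-in scaling (0.53, adjusted p 0.662). BTG2 and SESN1 differed from PSN1 at adjusted p of 0.0148 and 0.0153, with 2 counts each in the PSN1 KI-CDK9d-32 group, and the SESN1 call was lost without MOLT4 KI-CDK9d-32 replicate 2 or PSN1 DMSO replicate 1 (adjusted p up to 0.131). With spike-in scaling neither was called (adjusted p 0.146 for BTG2 and 0.124 for SESN1). Between PSN1 and RH4 the KI-CDK9d-32 effect differed for 0 of 9 members with edgeR (0.455% of all genes). TP53INP1 and SESN1, 2 of the 9, had an unadjusted p under 0.05. DESeq2 also called 0, but gave no adjusted p for these 2 or for BTG2 and ZMAT3. For PLK2 the effect differed by log2 0.08 with a 95% interval of -1.10 to 1.26. The KB-0742 effect differed between lines for 0 of 9 members with edgeR in each of the 3 pairs (11.2%, 8.39% and 6.7% of all genes), with 3, 2 and 0 members at an unadjusted p under 0.05, and DESeq2 called 1 in MOLT4 minus RH4. For MDM2 the KB-0742 effect differed by log2 -0.13 between MOLT4 and PSN1 (95% interval -0.74 to 0.48) and by 0.36 between MOLT4 and RH4 (-0.24 to 0.96).

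**Figure D5:**
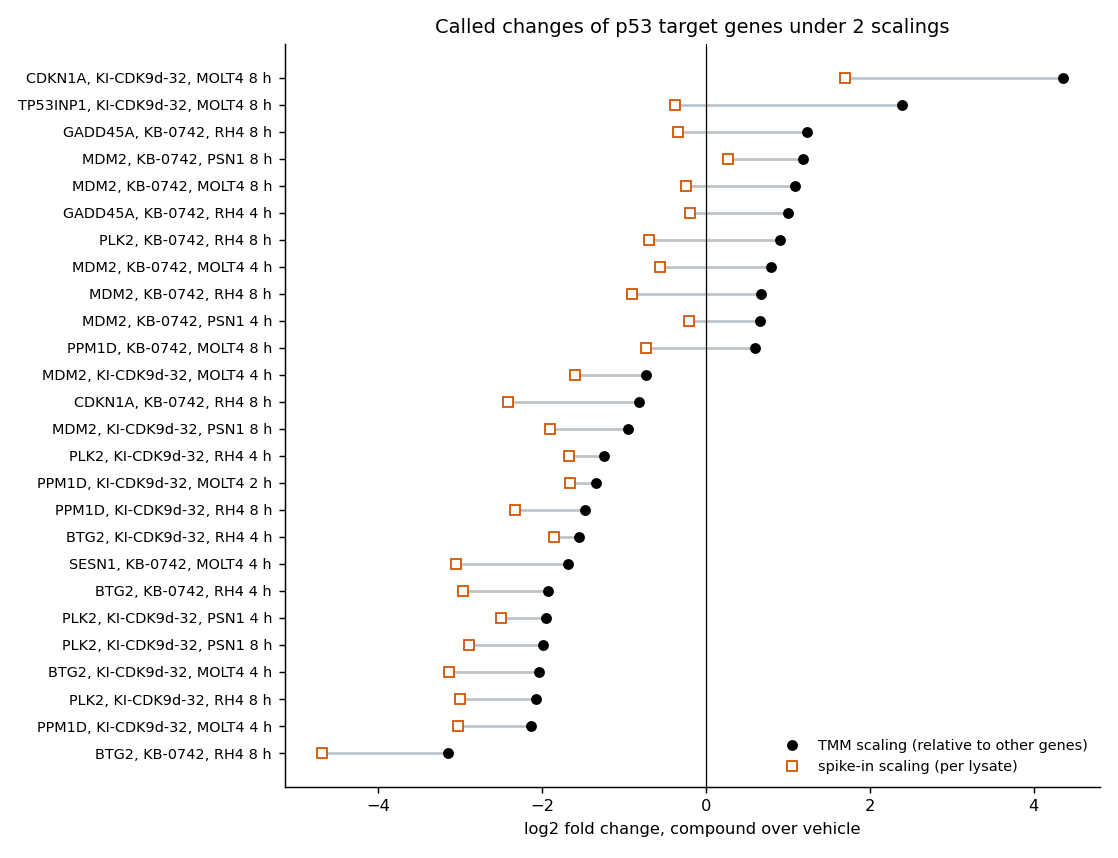
Log2 fold changes against DMSO of the 26 called member results without a group of 3 counts or fewer, with TMM scaling (black) and with spike-in scaling (orange squares). All spike-in values lie to the left of their TMM values, 9 of the 11 rises cross 0, and CDKN1A with KI-CDK9d-32 in MOLT4 (1.70) and MDM2 with KB-0742 in PSN1 at 8 h (0.27) remain above it.

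Other genes of the p53 pathway were counted at 8 h from lists chosen with earlier results known. Of 33 further p53 targets, KI-CDK9d-32 changed 5 upward and 6 downward of 25 tested in MOLT4, 0 and 3 of 29 in PSN1, and 1 and 2 of 26 in RH4. KB-0742 changed 4 upward and 7 downward (MOLT4), 1 and 8 (PSN1), and 3 and 11 (RH4). Of all genes at 8 h, KI-CDK9d-32 changed 49.6% (MOLT4), 20.7% (PSN1) and 15.2% (RH4), and KB-0742 changed 49.2%, 30.2% and 45.4%, so these counts are given as counts only. With KI-CDK9d-32 the list had a median log2 fold change of -0.0034 (MOLT4), -0.18 (PSN1) and -0.06 (RH4), and with KB-0742 of -0.31 (MOLT4), -0.53 (PSN1) and -0.57 (RH4), beside medians of all genes between -0.18 and -0.04. NINJ1, which ruptures the membrane of dying cells, averaged 0.877 ± 1.75 CPM with KI-CDK9d-32, 1.77 ± 1.47 under KB-0742 and 21.4 ± 4.21 with DMSO in MOLT4, and fell by log2 4.36 and 3.55. Its 6 counts with KI-CDK9d-32 all came from replicate 4, without which the fitted value was -8.85. In RH4 it fell by log2 1.14 with KI-CDK9d-32 (24.2 ± 6.86 CPM) and by 2.67 with KB-0742 (7.94 ± 5.57 CPM), against 53.2 ± 4.7 CPM with DMSO. DDB2, a DNA damage sensor of nucleotide excision repair, was higher with KI-CDK9d-32 than with KB-0742 in all 3 lines, by log2 2.44 ± 0.27 in MOLT4, 1.41 ± 0.36 in PSN1 and 2.08 ± 0.43 in RH4. With spike-in scaling only the RH4 call held (2.75), and MOLT4 (0.92, adjusted p 0.0979) and PSN1 (1.23, adjusted p 0.0768) lost theirs. XPC, which acts in the same pathway, fell with KB-0742 by log2 1.72 ± 0.43 in PSN1 and 2.11 ± 0.37 in RH4, and GDF15, a secreted stress factor, fell in RH4 by log2 1.73 ± 0.39 with KI-CDK9d-32 and 2.49 ± 0.45 under KB-0742.

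Of 16 regulators of p53, 14 or 15 were tested in each line. KI-CDK9d-32 changed 2 upward and 6 downward (MOLT4), 0 and 2 (PSN1), and 1 and 3 (RH4), and KB-0742 changed 5 and 0, 6 and 1, and 5 and 3 in the same lines, beside the same shares of all genes. MDM4, the partner of MDM2 that masks the p53 activation domain, averaged 46.1 ± 5.95 CPM with KI-CDK9d-32, 97.4 ± 10.6 under KB-0742 and 52.7 ± 6.56 with DMSO in MOLT4. With KB-0742 MDM4 was higher by log2 0.89 ± 0.15 in MOLT4 (-0.43 with spike-in scaling), 1.09 ± 0.15 in PSN1 (0.23, adjusted p 0.538) and 1.08 ± 0.16 in RH4 (-0.50). KI-CDK9d-32 against KB-0742 gave MDM4 log2 -1.08 ± 0.16 in MOLT4, -1.66 ± 0.16 in PSN1 and -1.16 ± 0.17 in RH4, where the call was lost with spike-in scaling (-0.45, adjusted p 0.19). KI-CDK9d-32 against vehicle called MDM4 in PSN1 alone (-0.57 ± 0.16, adjusted p 0.00667, lost without DMSO replicate 1 or KI-CDK9d-32 replicate 3). EP300, a p53 acetyltransferase, was higher with KB-0742 by log2 1.33, 1.63 and 1.51 in MOLT4, PSN1 and RH4 (-0.0019, 0.67 and -0.09 with spike-in scaling, and in PSN1 an adjusted p of 0.135). CHEK2, a kinase that phosphorylates p53, fell with KI-CDK9d-32 by log2 2.52 ± 0.34 in MOLT4 and 1.08 ± 0.23 in RH4.

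Among 14 paralogs of the members, CDKN1C, the p57 relative of CDKN1A, had 8.05 ± 3.15 CPM with KI-CDK9d-32 in MOLT4 at 8 h, 0.434 ± 0.318 with KB-0742 and 0.136 ± 0.272 with DMSO. It was higher with KI-CDK9d-32 than with KB-0742 by log2 4.06 ± 1.02 (adjusted p 7.09e-04). PLK1, the mitotic relative of PLK2, averaged 111 ± 18.8 CPM with KI-CDK9d-32, 446 ± 96.7 under KB-0742 and 152 ± 12.7 with DMSO in MOLT4, and rose by log2 1.56 ± 0.13 with KB-0742 (0.21 with spike-in scaling). RRM2, the cell cycle relative of RRM2B, fell in RH4 by log2 0.65 ± 0.12 with KI-CDK9d-32 and by 1.04 ± 0.12 with KB-0742. KI-CDK9d-32 changed 1 paralog upward and 4 downward of 10 tested in MOLT4, 0 and 2 of 11 in PSN1, and 0 and 1 of 12 in RH4, and KB-0742 changed 3 and 2, 1 and 3, and 2 and 2, again beside 15.2% to 49.6% of all genes.

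Across the 15 comparisons with vehicle, 4 members were tested in all 3 lines, and the genes with the most similar log2 fold changes were sought among 9338 genes. The closest to MDM2 were ZNF292 (Pearson's r 0.956) and CTCF (0.943), to PPM1D MED13 (0.908) and ACTG1P14 (0.891), to CDKN1A H2AC6 (0.843) and RN7SL1 (0.819), and to TP53INP1 TAF1C (0.871) and INSIG1 (0.849). Between members r was 0.727 for MDM2 and PPM1D, 0.591 for CDKN1A and TP53INP1, and -0.04 for CDKN1A and MDM2. Both compounds share a vehicle group at each line and time, so these values are descriptions over 15 points that are not independent. By GENCODE release 29, the genes span 3.278 kb (GADD45A) to 108.4 kb (SESN1). At least 1 TATTTAT, an AU-rich element, lies in the 3′ UTR of 6 of the 10 (BTG2, PLK2, GADD45A, PPM1D, RRM2B and TP53INP1), against 32.45% of 12154 coding genes tested in any line. The 4 without it are CDKN1A, MDM2, ZMAT3 and SESN1. The median 3′ UTR was longer in the members (1850.5 bases) than in those coding genes (1100.5), and the count makes no allowance for length.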

How the data were processed

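Bulk RNA was measured by SMART-seq2 (full-length cDNA, no strand, no molecular identifiers, per the labels' protocols) in 91 lysates carrying equal spike-in RNA. The authors quantified reads with Salmon against hg38, per the submitters' processing notes (versions not given in the sources used here). The deposited tables hold expected counts, rounded here, and log2(TPM + 1) values, used here for levels only and not rescaled to genes alone. The labels call replicates biological and name no separate cultures, and the p-values reflect only how these samples vary, which may be technical. Gene counts per library ran from 1598283 to 3240753.

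Each line was fitted with edgeR 4.0.16 (R 4.3.3; robust quasi-likelihood F test, TMM, filterByExpr with a minimum count of 10, Benjamini-Hochberg threshold 0.05), and the 8 h libraries of all lines together. Of 62856 entries, 99 spike-ins and 47 pseudoautosomal Y copies stayed out. The filter set aside 0.437% to 0.683% of counts. Each edgeR SE was calculated back as the absolute log2 fold change over the square root of F, and the 95% intervals were built from it. Such an SE can be unreliable near a difference of 0. For CDKN1A it was 4.264 at log2 0.01 for the KB-0742 effect in PSN1 minus RH4. Alternatives were DESeq2's size factors, spike-in scaling, no filter, DESeq2 1.42.0, a replicate block and leaving out each library. Scripts were tested on simulated data.

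All 10 members could be named in every comparison. The members and lists were chosen with earlier results of these data known. One listed gene is not reported here. Of each other list, MDM4 and up to 3 called genes with the largest absolute fold change per comparison could be named. Gene positions, spans, overlaps and UTRs are from GENCODE release 29 (hg38).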

Additional observations from a re-analysis of the deposited data

Results flagged for a closer look

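Among 159 groups of 4 libraries checked for a member, 5 held a library far from the other 3 by Dixon's test at the 95% level, which chance gives in about 1 in 20 groups. BTG2 was at 4.94 CPM in MOLT4 KB-0742 8 h replicate 4, with the others at 1.35 to 1.81, and MDM2 was at 9.15 CPM in PSN1 KI-CDK9d-32 8 h replicate 1, with the others at 6.35 to 6.69. The TP53INP1 value in that same PSN1 library was 0.832 CPM (2 counts), with the others at 0. Beside others all at 0, Dixon's test flags any value above 0. SESN1 was at 5.0 CPM in MOLT4 DMSO 2 h replicate 2 (others 2.08 to 2.38), and CDKN1A was at 4.57 CPM in PSN1 DMSO 4 h replicate 2 (others 7.34 to 7.88).

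By interaction tests in edgeR, the KI-CDK9d-32 effect in MOLT4 was higher at 8 h than at 4 h for CDKN1A (log2 4.99), BTG2 (3.25), PPM1D (2.47) and TP53INP1 (2.99). At 8 h it was higher in MOLT4 than in PSN1 for CDKN1A (3.86) and MDM2 (1.15, opposite in sign with spike-in scaling), and for BTG2 (adjusted p 0.0148), SESN1 (adjusted p 0.0153) and TP53INP1 (adjusted p 1.72e-05), for which a group held 3 counts or fewer and no fold is given. At 8 h it was also higher in MOLT4 than in RH4 for CDKN1A (4.70), BTG2 (2.47), PPM1D (1.94, opposite in sign with spike-in scaling) and TP53INP1 (2.63).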

How the results depend on the processing

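Of 76 called member results, 76 kept their call and direction with DESeq2's size factors, 75 with the DESeq2 test, 75 with the replicate block, 68 with no filter and 37 with spike-in scaling, where 28 lost the call and 11 turned sign. The call lost with DESeq2 was PLK2 in the vehicle comparison of PSN1 with RH4. With no filter the calls lost were PPM1D between the compounds in RH4 at 4 h (adjusted p 0.145), the KI-CDK9d-32 effect on MDM2 in MOLT4 minus PSN1 (0.0808) and on TP53INP1 in MOLT4 minus RH4 (0.0564) and in MOLT4 at 8 h minus 4 h (0.0687), PLK2 with KI-CDK9d-32 in PSN1 at 4 h (0.0695), and with KB-0742 SESN1 at 4 h and PPM1D at 8 h in MOLT4 (0.0837 and 0.1) and MDM2 at 4 h in PSN1 (0.173). Without 1 library at a time, 58 kept their call throughout and 18 did not. Spike-in scaling gave these counts of members called with KI-CDK9d-32 against vehicle: 0 at 2 h and 5 at 8 h in MOLT4, 2 at 4 h in PSN1, and 1 at 4 h and 5 at 8 h in RH4. With KB-0742 it gave 1 at 8 h in MOLT4, 2 at 8 h in PSN1 and 7 at 4 h in RH4. Between the compounds it gave 0, 1 and 2 at 2, 4 and 8 h in MOLT4, 1 and 1 at 4 and 8 h in PSN1, and 1 and 3 at 4 and 8 h in RH4. It gave 1 for KI-CDK9d-32 at 8 h minus 4 h in MOLT4, and 2 and 2 for its effect in MOLT4 minus PSN1 and minus RH4. Its construction sets each library against its spike-ins rather than its other genes. With KB-0742, the median of the deposited TPM lay below DMSO for MDM2, PLK2 and GADD45A in RH4 and for PPM1D in MOLT4 where called higher. Median TPM was above DMSO for the other higher calls against vehicle. These were MDM2 in MOLT4 and PSN1 with KB-0742, and CDKN1A and TP53INP1 in MOLT4 with KI-CDK9d-32. If spike-ins are part of the TPM total, which was not tested, these medians fall as the spike-in share rises. With DESeq2's size factors 4 were called with KI-CDK9d-32 in MOLT4 at 8 h, and with the DESeq2 test 4 there, 4 in RH4 at 4 h and 1 for the KB-0742 effect in MOLT4 minus RH4 (CDKN1A, adjusted p 0.0497). Those added in MOLT4 were BTG2 (0.03) and ZMAT3 (0.0219), and in RH4 MDM2 (0.0359) and PPM1D (0.0477). With no filter, which tests more genes, KB-0742 called 1 at 4 h and 1 at 8 h in MOLT4 and 1 at 4 h in PSN1, and KI-CDK9d-32 called 0 at 4 h in PSN1.

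Without 1 library, counts ranged from 2 to 4 (KI-CDK9d-32, MOLT4 8 h), 0 to 1 (KI-CDK9d-32, PSN1 4 h) and 1 to 2 (KI-CDK9d-32, RH4 4 h). With KB-0742 they ranged from 1 to 2 at 4 h and at 8 h in MOLT4, 1 to 2 at 4 h in PSN1, and 1 to 2 at 4 h and 3 to 5 at 8 h in RH4. Between the compounds at 2 h in MOLT4 the range was 1 to 2, and it was 0 to 1 for the KB-0742 effect in MOLT4 minus PSN1 and minus RH4 and for the KI-CDK9d-32 effect in PSN1 minus RH4.

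For KB-0742 against vehicle, signs that turned with spike-in scaling were MDM2 (-0.57 at 4 h and -0.25 at 8 h in MOLT4, -0.21 at 4 h in PSN1, -0.81 at 4 h and -0.90 at 8 h in RH4), PPM1D (-0.73, MOLT4 8 h), GADD45A (-0.19 at 4 h and -0.34 at 8 h, RH4) and PLK2 (-0.69, RH4 8 h). With KI-CDK9d-32 at 8 h they were TP53INP1 (-0.39), MDM2 (-2.75), BTG2 (-1.47), ZMAT3 (-1.54), SESN1 (-2.21) and PPM1D (-2.48) in MOLT4 and CDKN1A (-0.37) in PSN1. ZMAT3 between the compounds in MOLT4 at 8 h was -0.49, and the KI-CDK9d-32 effect differed by -0.84 for MDM2 (MOLT4 minus PSN1) and -0.14 for PPM1D (MOLT4 minus RH4). With KB-0742, MDM4 was -0.43 in MOLT4 and -0.50 in RH4, and EP300 was -0.002 in MOLT4 and -0.092 in RH4. Without 1 library, 3 uncalled KI-CDK9d-32 values at 8 h changed sign, with ranges of -0.052 to 0.232 for MDM2 and -0.102 to 0.96 for SESN1 in MOLT4 (negative without KI-CDK9d-32 replicate 2) and -0.164 to 0.012 for MDM4 in RH4 (positive without KI-CDK9d-32 replicate 1). Beyond construction, the cause was not tested.

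Replicate numbers were not taken to pair samples in the main fits. The limit used, that every same-numbered pair correlate above 0.1, was not met. Above it were 0 of 136 in MOLT4, 24 of 112 in PSN1 and 10 of 60 in RH4, against 0 of 408, 2 of 336 and 0 of 180 differently numbered pairs. Paired samples need not all correlate above 0.1, so this limit cannot exclude pairing. The main p-values, calls and overlaps take no account of it. The median r was 0.0218 for same-numbered against -0.00947 for differently numbered pairs in MOLT4, 0.0654 against -0.03 in PSN1, and 0.0545 against -0.0253 in RH4. Averaged over the other groups, 29 of 35 libraries in MOLT4, 30 of 32 in PSN1 and 22 of 24 in RH4 correlated best with their own number, a hint from the data and not from the design. The block ended the BTG2 call in the vehicle comparison of MOLT4 with RH4 (log2 -1.26, adjusted p 0.207) and added calls not made without it, such as BTG2 in MOLT4 against PSN1 vehicle (adjusted p 0.0042), BTG2 with KI-CDK9d-32 in RH4 at 8 h (0.0373), MDM2 with KI-CDK9d-32 in RH4 at 4 h (0.0191), CDKN1A with KB-0742 in RH4 at 4 h (0.0173), and CDKN1A between the compounds in PSN1 at 8 h (0.0312) and RH4 at 4 h (0.0376) and 8 h (0.00998). With the replicate block, 1 member was called for KB-0742 at 8 h minus 4 h in MOLT4 and 1 for KI-CDK9d-32 at 2 h in PSN1. Members at a few counts per library, such as PLK2 in MOLT4, carry wide counting error, and doses, which the labels do not give, could not be matched.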
